A study of Mus musculus with 6 samples.

Results

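The genes described here are the D and E cyclins of the G1 phase of the cell cycle, the kinases that they activate, and inhibitors of those kinases. They are Ccnd1, Ccnd2, Ccnd3, Ccne1, Ccne2, Cdk2, Cdk4, Cdk6, Cdkn1a and Cdkn2c, 10 genes chosen by symbol from the array's annotation. All 10 were among the 10209 genes tested. The array carried 25 probes for them, of which 24 were detected often enough to be kept. Cdkn1b, another inhibitor, was not one of the 10, and its value is given beside them.

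Gene expression was measured on Illumina mouse bead arrays in 6 C57 BL6 mice, 3 to a group, which the sample titles call biological replicates. The WT vehicle mice were wild type for N-Me, an enhancer of Myc that NOTCH1 binds, and received corn oil by intraperitoneal injection. The KO tamoxifen mice carried a conditional knockout of N-Me and received tamoxifen at 3 mg/kg in corn oil by the same route. All mice were processed at 40 h. Genotype and tamoxifen changed together, so their effects cannot be told apart, and the labels name neither the recombinase that acts on the allele nor the tissue. In what follows, WT and KO stand for the 2 groups, and n = 3 mice in each.

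D cyclins pair with CDK4 or CDK6 and phosphorylate the retinoblastoma protein, which releases E2F transcription factors, and E2F then induces the E cyclins, which pair with CDK2 and carry the cell into S phase. The CIP/KIP inhibitor p21, encoded by Cdkn1a, binds cyclin and kinase complexes, and the INK4 inhibitor p18, encoded by Cdkn2c, binds CDK4 and CDK6. MYC is known to act on this step, among other ways by raising transcription of Ccnd2 and Cdk4 and by lowering that of Cdkn1a, and in mouse thymocytes cyclin D3 and CDK6 are known to serve proliferation of early T cells.

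Myc itself had normalized log2 signals of 8.95, 8.75 and 9.04 in WT and of 7.42, 6.95 and 7.11 in KO. It was lower in every KO mouse than in any WT mouse, at a log2 change of -1.75 ± 0.16 (SE; limma, adjusted p = 0.000406). In the deposited log2 table, where no background is removed, the Myc change was -1.25. This rests on 1 probe, since the other Myc probe was detected on 0 arrays. Between 18215 and 19486 of the 45281 probes on an array were detected, and the median raw signal ran from 121.8 to 132.4, lowest in KO replicate 1. All values below are normalized log2 signals unless they are called raw, and each change is KO minus WT on that log2 scale. Signals of different probes are not on a common scale, so levels are compared between mice and not between genes. Adjusted p-values are those of limma with Benjamini-Hochberg adjustment over all genes tested, at a threshold of 0.05.

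Changes were common in this comparison: 19.7% of the genes tested were higher in KO and 17.1% were lower. Of the 10 members, 3 rose (Ccnd3, Ccne2 and Cdkn2c), 2 fell (Ccnd1 and Cdk6) and 5 did not pass the threshold, counts that lie near those shares for so short a list. The groups did not overlap for 7 members, with KO above WT for 4 and below for 3, where 50.5% of all genes tested had groups that did not overlap. In the raw signals 5 members had such groups, against 40.5% of all genes. The median size of a member's change was 0.53, and that of all genes tested was 0.33. A D cyclin and a kinase fell, while another D cyclin, an E cyclin and an inhibitor rose, so no role passed as a whole in 1 direction. Ccne1 did not pass, but every KO mouse lay above every WT mouse for both E cyclins.

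**Figure D1:**
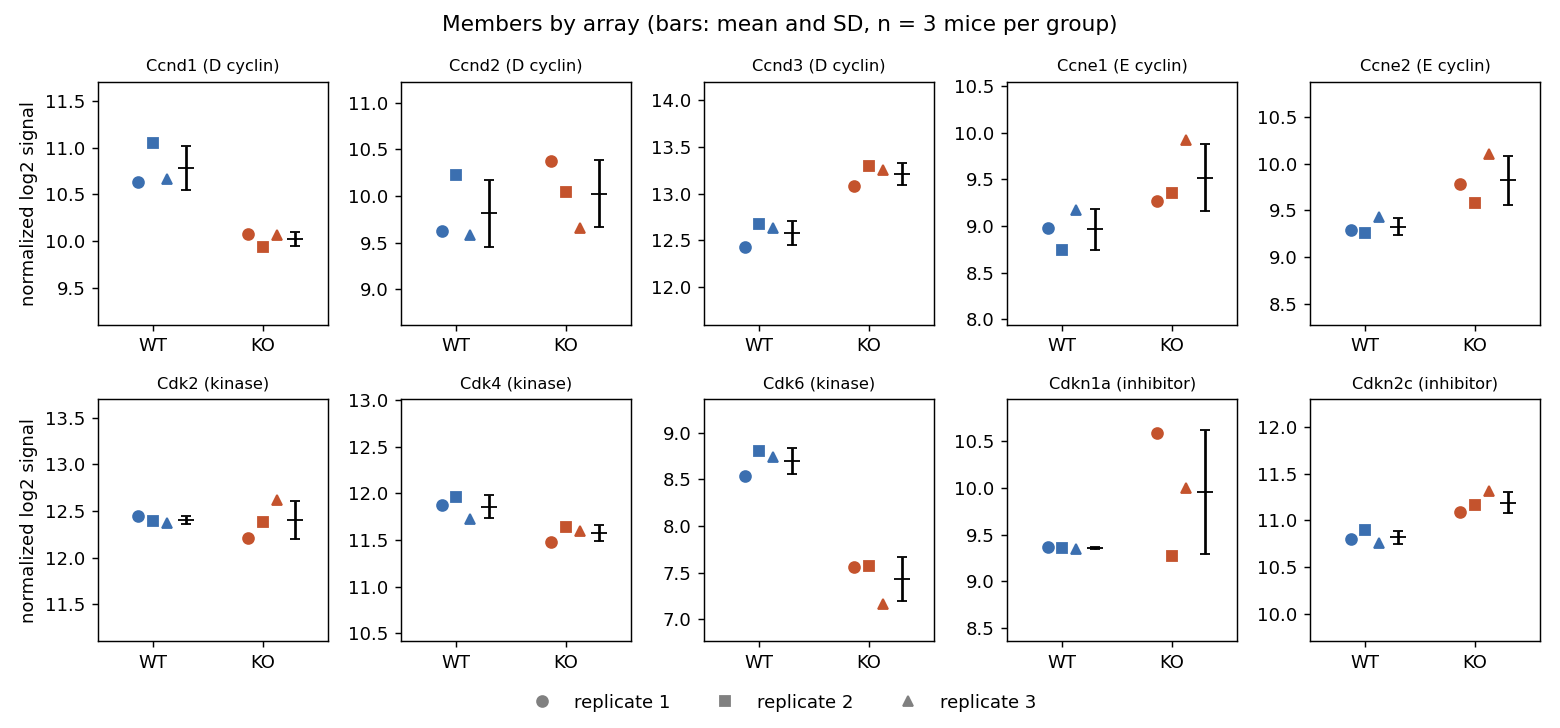
Normalized log2 signal (y axis) of each of the 10 members in the 3 WT vehicle and the 3 KO tamoxifen mice, with 1 panel per gene, a symbol per mouse, and beside them the group mean with bars of 1 SD. KO points lie below all WT points for Ccnd1, Cdk4 and Cdk6, and above them for Ccnd3, Ccne1, Ccne2 and Cdkn2c. The ranges of the groups overlap for Ccnd2, Cdk2 and Cdkn1a.

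Marker genes of other cell types differed between the same mice, and their part in the changes below was not tested. Here and below, a summed level is the sum of a list's normalized signals on the linear scale. The brightest probes of a list weigh most in it, so it can hide changes of dimmer genes. All 5 macrophage and dendritic cell markers tested rose, and their summed level was 6471 to 7872 in WT and 12538 to 18970 in KO. Of 7 erythroid markers 4 rose, among them Klf1 at 1.13 ± 0.16 (SE), with summed levels of 86312 to 94851 in WT and 106306 to 110795 in KO. The 3 that did not pass were the globin genes Hba-a1 (0.16), Hbb-bt (0.15) and Hbb-bs (-0.037), the brightest of the list. Of 7 endothelial and fibroblast markers 4 rose, with summed levels of 1803 to 2281 and of 2890 to 4390. None of 6 neutrophil markers passed, and their summed level was 3421 in KO replicate 1 against 14445 and 11655 in the other KO mice and 4094 to 5977 in WT. Of 2 B cell markers Cd22 rose, the summed level being 396 to 699 in WT and 939 to 1822 in KO. Of 3 cytotoxic cell markers Nkg7 rose, while Klrb1c (-0.32, adjusted p = 0.297) and Prf1 (0.12, adjusted p = 0.526) did not pass. The mean of the Prf1 probes was at 0.73 (adjusted p = 0.00863). The summed level of the 3 markers was 1243 to 1535 in WT and 1915 to 2178 in KO. Of 9 T cell markers 3 fell, the early thymocyte genes Rag1 (-2.80 ± 0.20), Ptcra (-1.94 ± 0.20) and Dntt (-1.25 ± 0.18), with Rag1 at -1.76 and Ptcra at -1.002 in the deposited log2 table, where no background is removed, while the summed level of the list was 51497 to 54908 in WT and 51470 to 52247 in KO. The defining markers Cd8a, Ms4a1, Pax5, Itgam, Itgax, Kdr, Ncr1 and Gzmb were detected on too few arrays to be kept. In such bulk samples fewer cells of a type and less RNA per cell cannot be told apart.

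The 3 D cyclins did not move as one. Ccnd1, which encodes cyclin D1, had signals of 10.64, 11.05 and 10.66 in WT and of 10.07, 9.93 and 10.06 in KO (probe ILMN_1221503; raw signals 1731, 2383.5 and 1725.6 in WT and 985, 1223.7 and 1135.3 in KO). Every KO mouse lay below every WT mouse, and WT replicate 2 was the highest. The group means were 10.78 ± 0.23 (SD) and 10.02 ± 0.079, a change of -0.76 ± 0.15 (SE), or 1.70-fold lower, with a 95% interval of -1.10 to -0.43 (adjusted p = 0.00514). KO also lay below WT in each of the 2 further Ccnd1 probes, at changes of -0.84 and -0.57. In the fit of single probes the first of these passed (adjusted p = 0.0253) and the other did not (adjusted p = 0.0505).

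Ccnd3, which encodes cyclin D3, moved the other way. It stood at 12.43, 12.68 and 12.63 in WT and at 13.08, 13.30 and 13.26 in KO (probe ILMN_3131063), so that every KO mouse was above every WT mouse. The means of 12.58 ± 0.13 (SD) and 13.21 ± 0.11 differed by 0.63 ± 0.13 (SE), a 1.55-fold rise with a 95% interval of 0.34 to 0.93 (adjusted p = 0.00681). A second Ccnd3 probe rose by 0.71 ± 0.13 (adjusted p = 0.00510), and another, dim and detected on 5 of 6 arrays, was at 0.37 ± 0.18 (adjusted p = 0.154) with KO above WT. The 3 probes of this gene therefore had changes of 1 sign.

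Ccnd2, which encodes cyclin D2, had signals of 9.63, 10.23 and 9.58 in WT and of 10.38, 10.05 and 9.65 in KO (probe ILMN_2700166). The groups overlapped, since WT replicate 2 stood above 2 of the KO mice. The change was 0.21 ± 0.23 (SE), with a 95% interval of -0.31 to 0.74 (adjusted p = 0.497), which leaves room for a rise as large as that of Ccnd3 and for a smaller fall. The 2 other Ccnd2 probes kept were at 0.22 ± 0.24 and 0.059 ± 0.20, and 1 more was detected on 1 array only and was not kept.

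How far members of the same role differed in their change was measured within each mouse, as the log2 difference between both genes, over 8 pairs. With 3 mice against 3 the exact permutation test (2-sided) cannot go below 0.1, so no pair could pass, and the best adjusted p over the 8 pairs was 0.16. The changes of Ccnd1 and Ccnd3 were 1.39 apart (-1.39 ± 0.14, SE; exact permutation p = 0.1) and those of Ccnd1 and Ccnd2 were 0.98 apart (-0.98 ± 0.23; exact permutation p = 0.1). In both pairs all KO mice lay below all WT mice in that difference. For Ccnd2 and Ccnd3 it was -0.42 ± 0.32 with overlapping groups (exact permutation p = 0.3).

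**Figure D2:**
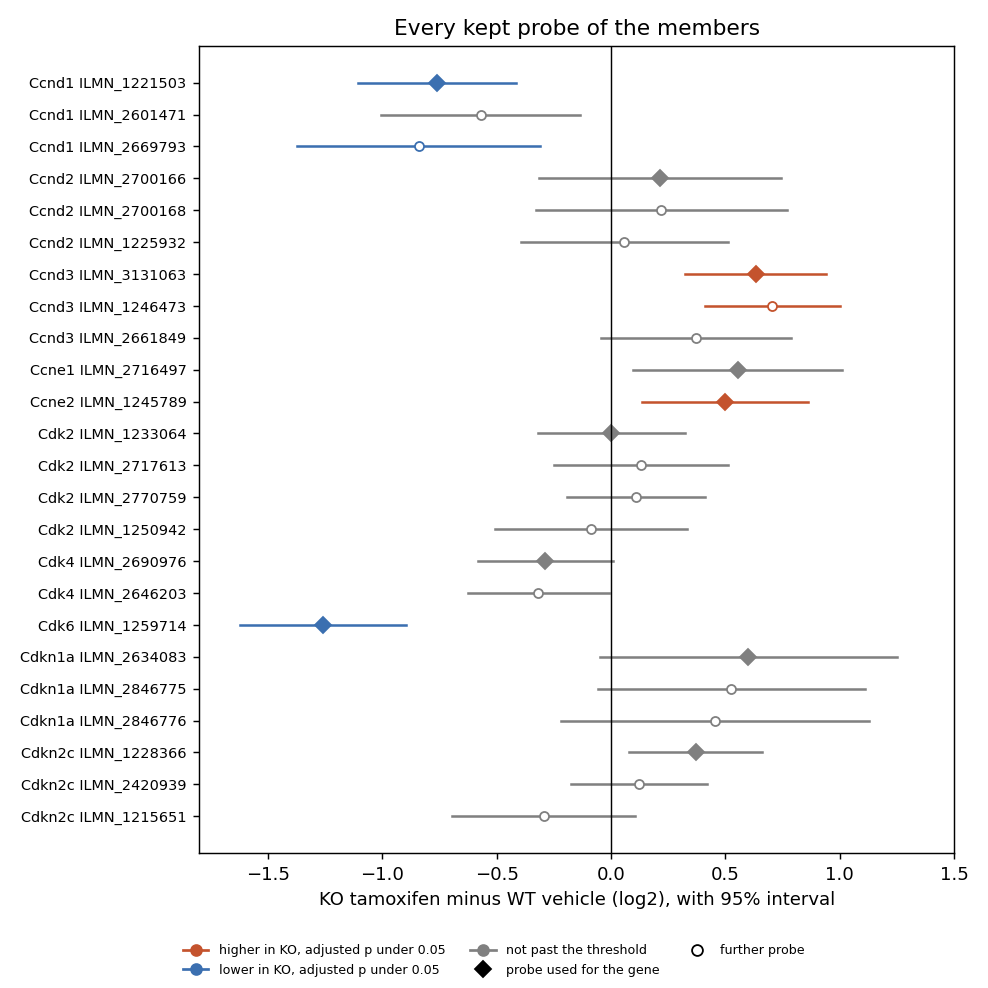
Change (KO minus WT, log2, x axis) with its 95% interval for each of the 24 kept probes of the members (rows, grouped by gene), from the fit of single probes; the colour shows whether the adjusted p was under 0.05. The probes of Ccnd1, of Ccnd2, of Ccnd3, of Cdk4 and of Cdkn1a each lie on 1 side of 0, whereas those of Cdk2 and of Cdkn2c lie on both.

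Both E cyclins, the partners of CDK2, had higher values in every KO mouse than in any WT mouse, and Ccne2 passed the threshold. Ccne2, which encodes cyclin E2, had signals of 9.29, 9.25 and 9.43 in WT and of 9.79, 9.58 and 10.10 in KO (probe ILMN_1245789). Its means of 9.33 ± 0.093 (SD) and 9.82 ± 0.26 differed by 0.50 ± 0.15 (SE), a 1.41-fold rise with a 95% interval of 0.15 to 0.85 (adjusted p = 0.0343). The call was lost when WT replicate 1, 2 or 3 was left out (adjusted p = 0.0986, 0.0877 and 0.0634) and when KO replicate 3 was (change 0.36, adjusted p = 0.105). It was also lost under same-median scaling of the arrays (0.42, adjusted p = 0.0618) and with no filter on dim probes (adjusted p = 0.0519).

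Ccne1, which encodes cyclin E1, had signals of 8.98, 8.74 and 9.18 in WT and of 9.27, 9.36 and 9.93 in KO (probe ILMN_2716497). The gap between the groups was small and KO replicate 3 stood well above the rest. The change was 0.55 ± 0.20 (SE), with a 95% interval of 0.10 to 1.00, and did not pass (adjusted p = 0.0560). It passed in 8 of the 18 alternatives: without KO replicate 1 (0.68, adjusted p = 0.0316), and in 7 others of background, filter, variance model, weights and block, at adjusted p-values of 0.0246 to 0.0491. Among these, the deposited log2 table and the fit without background correction use nearly the same values. The change was 0.35 without KO replicate 3, and in the raw signals the groups overlapped. The changes of both E cyclins differed by 0.056 ± 0.13 (SE; exact permutation p = 0.6), and each gene had 1 probe. KO replicate 3, the highest mouse for both, also had the highest summed level of macrophage and dendritic cell markers, 18970. It was highest for Lyz2, C1qa and C1qb, but KO replicate 2 was highest for Csf1r and Adgre1. KO replicate 3 also had the highest summed level of erythroid markers, by a narrow margin, at 110795 against 110500 in KO replicate 2. It was highest for Klf1, Epor and Ermap, but not for Alas2 or the globin genes Hba-a1, Hbb-bs and Hbb-bt. Its summed level was highest too for the S, G2 and M cyclins and kinases described below, at 8728. The part of these in the E cyclin values was not tested.

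Of the 3 kinases, Cdk6 fell, and Cdk4 and Cdk2 did not pass. Cdk6, a partner of the D cyclins, had signals of 8.53, 8.80 and 8.74 in WT and of 7.56, 7.58 and 7.16 in KO (probe ILMN_1259714; raw signals 464.5, 569.1 and 524.1 in WT and 260.2, 331.7 and 245.6 in KO). Every KO mouse was well below every WT mouse. The means of 8.69 ± 0.14 (SD) and 7.43 ± 0.24 differed by -1.26 ± 0.15 (SE), or 2.39-fold, with a 95% interval of -1.61 to -0.91 (adjusted p = 0.00116). This was the largest change among the 10 members and ranked 212 of the 10209 genes tested by p-value. It rests on 1 probe, and its size was between -1.34 and -0.90 over the alternatives tried, smallest where no background was removed.

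Cdk4, the other kinase of the D cyclins, had signals of 11.88, 11.97 and 11.73 in WT and of 11.48, 11.64 and 11.59 in KO (probe ILMN_2690976). All KO mice were below all WT mice by a narrow gap, although in the raw signals the groups overlapped. The change was -0.29 ± 0.12 (SE), with a 95% interval of -0.57 to -0.0021 (adjusted p = 0.105), and a second Cdk4 probe was at -0.32 ± 0.14 (adjusted p = 0.105). The call changed with the processing: the adjusted p was 0.0472 without background correction and 0.0497 with a trended, robust variance.

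Cdk2, the partner of the E cyclins, had signals of 12.45, 12.39 and 12.37 in WT and of 12.21, 12.38 and 12.61 in KO (probe ILMN_1233064). WT mice were close together, and the KO mice spread to both sides of them. The change was 0.0021 ± 0.14 (SE), with a 95% interval of -0.31 to 0.31 (adjusted p = 0.993), and its sign turned under some settings. Its 3 further probes were at 0.13, 0.11 and -0.087, none past the threshold. Within mice, the change of Cdk6 was below that of Cdk2 by 1.26 ± 0.27 (SE) and below that of Cdk4 by 0.97 ± 0.19, and that of Cdk4 was below that of Cdk2 by 0.29 ± 0.11, each with groups that did not overlap (exact permutation p = 0.1, adjusted over the pairs 0.16). Without background correction the distance of Cdk6 from Cdk4 was 0.63.

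Promoter sequence was looked at because MYC with its partner MAX binds the E-box CACGTG, and Myc fell in these mice. RefSeq windows on GRCm38.p6, from 250 bases before to 50 after a transcript start, were at hand for 7 of the 10 members, in 10 windows, but not for Ccnd1, Ccnd2 and Ccne2. CACGTG, which reads the same on both strands, was found in 3 of the 10 windows, those of Cdk4, of Cdk6 and of 1 of the 2 Cdkn2c windows, and in 7.15% of all 32851 windows. The 3 windows are shown 5′ to 3′ on the strand of the gene, with CACGTG in capitals. They lie at chr10:127063285-127063584 (plus strand) for Cdk4, at chr5:3343643-3343942 (plus strand) for Cdk6 and at chr4:109665323-109665622 (minus strand) for Cdkn2c.
Cdk4: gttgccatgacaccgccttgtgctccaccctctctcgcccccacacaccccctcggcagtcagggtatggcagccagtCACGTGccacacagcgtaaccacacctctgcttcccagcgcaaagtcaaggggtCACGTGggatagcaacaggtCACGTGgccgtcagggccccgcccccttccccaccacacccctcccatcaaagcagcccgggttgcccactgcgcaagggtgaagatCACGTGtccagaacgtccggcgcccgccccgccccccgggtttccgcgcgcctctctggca
Cdk6: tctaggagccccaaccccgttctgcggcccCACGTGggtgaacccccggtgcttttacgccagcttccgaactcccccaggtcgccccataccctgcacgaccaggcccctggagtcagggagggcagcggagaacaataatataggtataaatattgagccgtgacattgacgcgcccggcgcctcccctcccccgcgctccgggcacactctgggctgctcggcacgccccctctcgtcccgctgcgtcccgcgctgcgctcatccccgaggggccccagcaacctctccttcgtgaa
Cdkn2c: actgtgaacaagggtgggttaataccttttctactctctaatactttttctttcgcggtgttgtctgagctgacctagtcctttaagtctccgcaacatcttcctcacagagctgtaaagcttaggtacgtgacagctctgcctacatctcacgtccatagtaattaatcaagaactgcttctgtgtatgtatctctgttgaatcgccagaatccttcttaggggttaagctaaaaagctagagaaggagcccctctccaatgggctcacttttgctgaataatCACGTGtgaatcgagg

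The Cdk4 window held 4 copies, which began 172, 118, 98 and 11 bases before the start, the Cdk6 window held 1 that began 220 bases before it, and the Cdkn2c window held 1 that began 34 bases after it. The 3 genes with the motif moved differently: Cdk6 fell, Cdkn2c rose and Cdk4 did not pass. The windows of Ccnd3, Ccne1, Cdk2 and Cdkn1a did not hold these letters. Of the E2F motifs TTTCCCGC and TTTGGCGC, read on both strands, the first was found once, in the Cdk2 window, and either of them stood in 1.56% of all windows. The GC box GGGCGG, read on both strands, was in 7 of the 10 windows and in 35.7% of all. These matches describe the letters in the windows and are not measurements of binding.

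Of the inhibitors, Cdkn2c rose by a small amount and Cdkn1a was uneven among the KO mice. Cdkn2c, which encodes p18, had signals of 10.80, 10.90 and 10.76 in WT and of 11.09, 11.17 and 11.31 in KO (probe ILMN_1228366). All KO mice were above all WT mice in these values, and the groups overlapped in the raw signals. The means of 10.82 ± 0.072 (SD) and 11.19 ± 0.11 differed by 0.37 ± 0.12 (SE), a 1.29-fold rise with a 95% interval of 0.093 to 0.65 (adjusted p = 0.0423). The other 2 probes of the gene did not show it: their changes were 0.12 ± 0.13 and -0.29 ± 0.18, neither past the threshold, and the mean of the 3 probes was at 0.067 (adjusted p = 0.677). The call was also lost under same-median scaling of the arrays (0.24, adjusted p = 0.242) and with the replicate number as a block (adjusted p = 0.0705). Leaving out WT replicate 1, 2 or 3 gave adjusted p-values of 0.116, 0.0621 and 0.123, and leaving out KO replicate 2 or 3 gave 0.0844 and 0.128.

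Cdkn1a, which encodes p21 and is a target of p53, had signals of 9.37, 9.35 and 9.35 in WT and of 10.59, 9.27 and 10.001 in KO (probe ILMN_2634083). The WT mice were nearly equal, KO replicates 1 and 3 were above them, and KO replicate 2 was just below, although its raw signal of 825 exceeded the highest WT signal of 796.2. The change was 0.60 ± 0.28 (SE), with a 95% interval of -0.043 to 1.25 (adjusted p = 0.129). Without KO replicate 2 it was 0.94 (adjusted p = 0.0107), and without KO replicate 1 it was 0.28 (adjusted p = 0.316). The KO mice stood in the same order in both further probes, at changes of 0.53 ± 0.26 and 0.46 ± 0.30. The summed level of endothelial and fibroblast markers had that order too, at 4390, 2890 and 3154 in KO replicates 1, 2 and 3. Of its genes, Pecam1 and Col1a1 had the order, whereas Cdh5, Col1a2, Col3a1, Dcn and Pdgfrb did not. The summed level of the cytotoxic cell markers also had the order of Cdkn1a, at 2178, 1915 and 2031. Among its genes Prf1 had that order, and Nkg7 and Klrb1c did not. No other marker list had that order in its summed level. The part of either matching list in the Cdkn1a values was not tested. The changes of Cdkn1a and Cdkn2c differed by 0.23 ± 0.41 (SE; exact permutation p = 0.7). Cdkn1b, which encodes p27, was at 0.26 ± 0.14 (adjusted p = 0.173) on the 1 of its 3 probes that was kept.

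Tested one by one, the 24 kept probes of the members gave 3 that rose (2 of Ccnd3 and that of Ccne2) and 3 that fell (2 of Ccnd1 and that of Cdk6), where 15.7% of all 19082 kept probes rose and 16.5% fell. Cdkn2c had no probe past the threshold in that fit, its brightest being at an adjusted p of 0.0544. The calls of Ccnd1, Ccnd3 and Cdk6 held in all 18 alternatives tried, 6 of which leave out 1 mouse each. The narrowest was that of Ccnd3 under same-median scaling of the arrays (0.46, adjusted p = 0.0475).

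**Figure D3:**
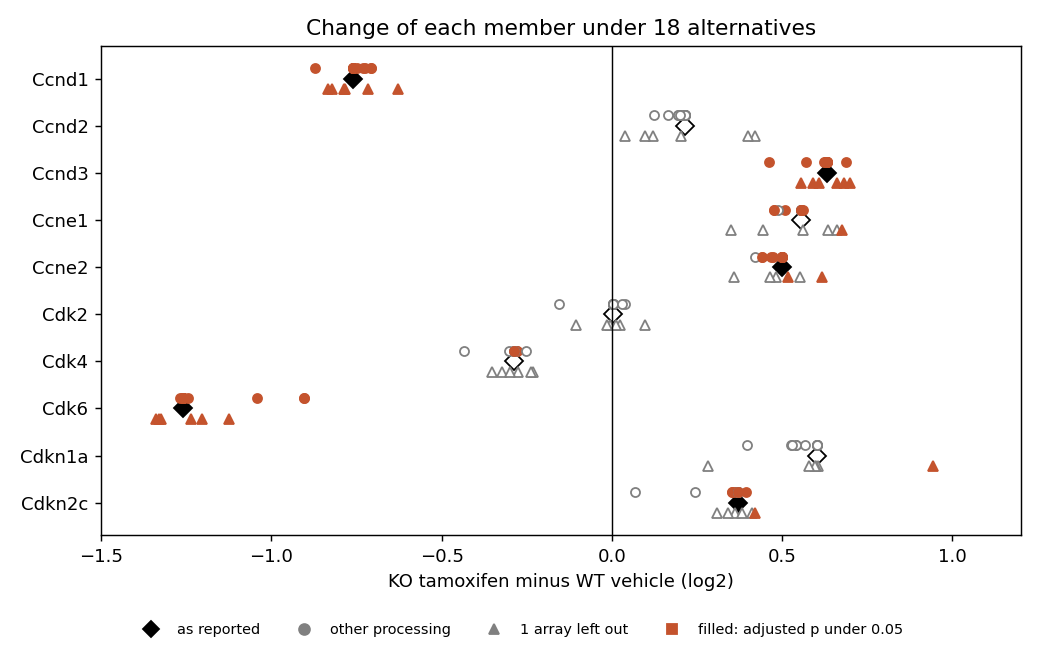
Change (KO minus WT, log2, x axis) of each member as reported (diamond) and under 18 alternatives, with circles for other processing and triangles for fits with 1 array left out; filled symbols have an adjusted p under 0.05. Ccnd1, Ccnd3 and Cdk6 are filled throughout, whereas Cdkn1a is filled only at 0.94, without KO replicate 2.

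The genes around the members were read from lists of their pathway, by counts and medians. The median change of all genes tested was 0.0011, and the counts stand against the 19.7% of all genes that rose and the 17.1% that fell. Of 13 RB family and E2F genes, 1 rose, 1 fell and 11 did not pass, at a median change of -0.0011, and each of these counts was 0 when WT replicate 1 or 3 or KO replicate 2 was left out. Without KO replicate 1 they were 3 and 2, and without KO replicate 3 none fell. Rb1, which encodes the retinoblastoma protein, was at 0.54 ± 0.16 (SE; adjusted p = 0.0279), a call lost without WT replicate 1 (0.41, adjusted p = 0.1002), WT replicate 3 (0.0627) or KO replicate 2 (0.0876) and with arrays scaled to the same median (0.134). Tfdp1, which encodes the DP1 partner of E2F, was at -0.45 ± 0.14 (adjusted p = 0.0324), with adjusted p-values of 0.113 and 0.0945 when WT replicates 1 and 3 were left out and of 0.0926 and 0.0990 when KO replicates 2 and 3 were.

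Of 6 other CDK inhibitor genes, 2 rose and 1 fell, at a median change of 0.28, numbers too small to set apart from the 19.7% and 17.1% of all genes. With arrays scaled to a common median none of them rose, and 1 did when WT replicate 1 or 3 or KO replicate 2 or 3 was left out. Cdkn2a, which encodes p16 and p19ARF, stood at 6.29, 6.33 and 6.24 in WT and at 5.48, 5.05 and 5.17 in KO, and every KO mouse was below every WT mouse (-1.05 ± 0.14, SE; adjusted p = 0.00145). It was detected in 3 of 3 WT mice and in 1 of 3 KO mice, so the size of its fall is uncertain, being -0.38 in the deposited log2 table, where no background is removed. It is not tested where detection on all 6 arrays is required. Cdkn2d, which encodes the INK4 inhibitor p19, stood at 9.97, 10.25 and 10.02 in WT and at 10.46, 10.92 and 10.95 in KO, and every KO mouse was above every WT mouse (0.70 ± 0.16; adjusted p = 0.0119). That call was lost with arrays scaled to the same median (adjusted p = 0.0533). Cdkn3, which encodes a phosphatase of CDK2, was at 0.50 ± 0.14 (adjusted p = 0.0226), lost under the same scaling (0.145). Its adjusted p was 0.0873 and 0.0812 with WT replicates 1 and 3 left out, and 0.0661 and 0.0576 with KO replicates 2 and 3 left out.

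Of 16 genes that activate the kinases or set the turnover of cyclins and inhibitors, 4 fell and 1 rose, at a median change of -0.28, where 17.1% of all genes fell and 19.7% rose. The falls were 2 without WT replicate 1 or WT replicate 3, and the rises were 2 without KO replicate 3. The CDK-activating kinase is built of CDK7, cyclin H and MAT1, and the genes of cyclin H and MAT1 fell. Cdk7, named after its value was seen, was at -0.19 ± 0.21 (SE; adjusted p = 0.505) with overlapping groups. Mnat1, for MAT1, stood at 10.38, 10.24 and 10.40 in WT and at 9.56, 9.43 and 9.49 in KO (-0.85 ± 0.12, SE; adjusted p = 0.00159). Ccnh, for cyclin H, stood at 11.03, 11.10 and 10.85 in WT and at 10.11, 10.55 and 10.19 in KO (-0.71 ± 0.15; adjusted p = 0.00825). For neither gene did the groups overlap. Cdc37, for the HSP90 co-chaperone that loads CDK4 and CDK6, fell (-0.83 ± 0.20; adjusted p = 0.0137), a call lost without WT replicate 1 (0.0510) or WT replicate 3 (0.0549), and its change was -0.52 in the deposited log2 table. The ubiquitin ligase scaffold genes Cul4a and Cul1 were at 0.66 ± 0.13 (adjusted p = 0.00573) and -0.42 ± 0.13 (adjusted p = 0.0342), the latter named after its value was seen.

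Of 7 cyclin and kinase genes of S, G2 and M, which act after G1, 1 rose and none fell, at a median change of -0.10. Of 19 E2F target genes of S phase 1 rose and 1 fell, also at -0.10. Over all genes 19.7% rose and 17.1% fell, and whether the lists differ from that was not tested. The E2F target genes that fell numbered 0 to 3 over the alternatives: 3 where the probes of each gene were averaged, and 0 when WT replicate 2 or KO replicate 1 or 3 was left out. Those that rose were 0 where probes were averaged and 2 without KO replicate 1. In the list of S, G2 and M, 1 gene fell without KO replicate 3 and 1 fell with the replicate number as a block. Rrm2, for a subunit of ribonucleotide reductase, stood at 10.90, 11.01 and 11.00 in WT and at 11.52, 11.55 and 11.79 in KO (0.65 ± 0.13, SE; adjusted p = 0.00558), and the mean of its probes was at 0.29 (adjusted p = 0.0617). The riser of the first list was Cdc25b, for a phosphatase that activates CDK1 (0.46 ± 0.15; adjusted p = 0.0453), a call that held only without KO replicate 1 when 1 array was left out and otherwise had an adjusted p of up to 0.157. The gene that fell, Mcm6 of the replicative helicase, was at -0.44 ± 0.14 (adjusted p = 0.0361), with adjusted p-values of 0.0842 and 0.122 when WT replicates 2 and 3 were left out and of 0.0807 and 0.0853 when KO replicates 1 and 3 were. KO replicate 1 had the lowest summed level of the E2F target list, 67725, where the other 5 mice lay between 77378 and 79779.

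Of 16 other p53 target genes, 3 rose and 2 fell, at a median change of 0.00083, near the 19.7% and 17.1% of all genes, and the genes that passed were split between directions. Gadd45a, a stress-induced growth arrest gene, stood at 11.08, 11.35 and 10.86 in WT and at 11.80, 12.07 and 12.19 in KO (0.92 ± 0.17, SE; adjusted p = 0.00400). The death receptor gene Fas was at 0.60 ± 0.14 (adjusted p = 0.0111) and Sesn1, named after its value was seen, at 0.55 ± 0.12 (adjusted p = 0.00851). Zmat3, for an RNA-binding protein, was at -0.82 ± 0.12 (adjusted p = 0.00196) and Ddb2, for a DNA damage sensor, at -0.64 ± 0.11 (adjusted p = 0.00359). KO replicate 2, the lowest mouse for Cdkn1a, lay between the other KO mice for Gadd45a and Zmat3. It was the lowest KO mouse for Fas, Sesn1 and Ddb2, and a link to the Cdkn1a values was not tested.

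**Figure D4:**
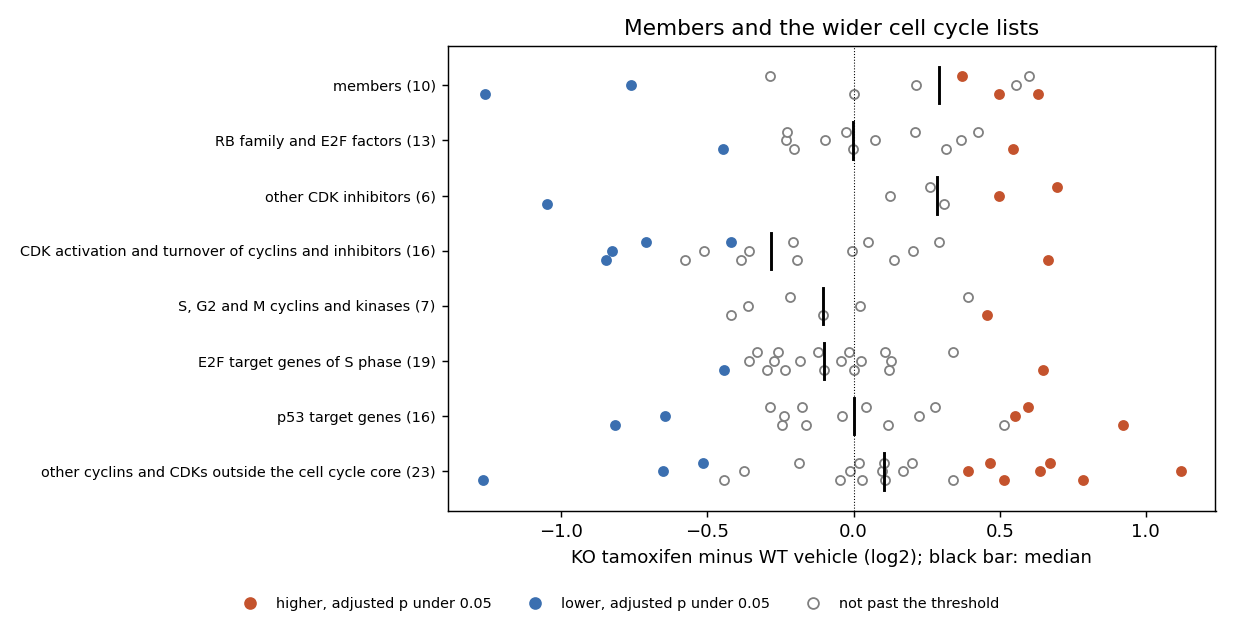
Change (KO minus WT, log2) of the 10 members (top row) and of each gene tested in the lists around them, with 1 row per list, a point per gene coloured by whether its adjusted p was under 0.05, and a bar at each list's median. The medians of the lists lie between -0.28 and 0.28, and genes past the threshold lie on both sides of 0 in 6 of the 7 lists.

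For each member past the threshold, the genes nearest in pattern were those with the smallest Euclidean distance over the 6 arrays, each gene being centred on its own mean. Genes with provisional symbols (Rik, Gm, LOC or accession-like names) were left out of this ranking. For Cdk6 they were Hsd17b7 (distance 0.21), Zfp106 (0.23) and Sapcd2 (0.25). For Ccnd1 they were Atp10a (0.077), Rnf113a1 (0.13) and Pigb (0.17), and for Ccnd3 they were Azin1 (0.058), Vstm4 (0.087) and Akap7 (0.087). For Ccne2 they were Cdh3 (0.11), F2r (0.16) and Lilr4b (0.17), and for Cdkn2c they were Suco (0.056), Spsb3 (0.066) and Lpin2 (0.093). No member was among the 3 nearest genes of another, which says little, since 3 places among so many genes leave little room for so short a list.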

How the data were processed

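Biotin-labelled total RNA from each of the 6 mice was read on an Illumina bead array, per the labels' protocols. Per the file headers, the deposited raw table gives 45281 probes 2 columns a mouse, the intensity and the detection p-value. A deposited log2 table equals the quantile-normalized log2 raw signals within 5e-05, so its scale is settled. It served as an alternative. Neither the scanner software nor the genome build behind the array's annotation is named in the sources used here.

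Intensities were normalized with neqc in limma 3.58.1 (R 4.3.3), with negative controls inferred from the detection p-values and an offset of 16, which shrinks changes of dim probes. A probe was kept when its detection p was below 0.05 on 3 or more of the 6 arrays (19082 probes), and the brightest kept probe stood for its gene. Probes were named from GEO's platform annotation: 34885 had 1 symbol, 18 had several and 10378 had none. lmFit and eBayes compared 3 KO with 3 WT mice over 10209 genes, 2-sided, with Benjamini-Hochberg adjustment. The pipeline was tested on simulated data. The number of arrays limits the precision.

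The labels do not say that replicate numbers mark shared litters or days, so no block was used. Deviations from the group means correlated at 0.17, 0.12 and -0.080 between same-numbered mice, which does not settle whether the numbers mark pairs. The named genes are all 10 members, Myc and Cdkn1b, up to 4 genes past the threshold with the largest change of each pathway list, up to 3 markers per cell type, and the 3 nearest genes of each member past the threshold. The members and lists were chosen with earlier results of these data known. The alternatives covered background, scaling, the filter, the choice of probe, the variance model, array weights, the replicate block and leaving out each array. Promoter windows were read from RefSeq on GRCm38.p6.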

Additional observations from a re-analysis of the deposited data

How the results depend on the processing

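Ccnd1, Ccnd3 and Cdk6 kept their direction and their call in all 18 alternatives, that of Ccnd3 narrowly under same-median scaling (adjusted p = 0.0475). The count of members that rose was 3, and 1 with arrays scaled to the same median. Over fits with 1 array left out it was 1 to 4: it was 1 without WT replicate 1, 2 or 3 or KO replicate 3. The count that fell was 2 to 3 throughout. Of the pathway genes together, 16 rose, 10 with the same-median scaling and 11 to 18 with 1 array left out. Of these genes 12 fell, 7 to 14 with 1 array left out and 7 without WT replicate 1 or WT replicate 3. All genes gave 2015 rises and 1748 falls, 1373 and 1143 without WT replicate 1, 1342 and 1144 without WT replicate 3. Same-median scaling moved the median of all genes to -0.052. The sign of Cdk2 turned under that scaling (-0.16) and ran from -0.10 to 0.097 with 1 array left out, being -0.0044 without WT replicate 2, -0.014 without WT replicate 3 and -0.10 without KO replicate 3. The cause was not tested. With the replicate number as a block, 3 members rose and 2 fell (15 and 15 of the pathway genes), since Ccne1 passed (adjusted p = 0.0246) and Cdkn2c did not (adjusted p = 0.0705). KO replicates 1 and 2 correlated best with the WT mouse of their own number (0.17 and 0.12) and KO replicate 3 with WT replicate 2 (0.21). With 3 mice a group these correlations cannot settle whether the numbers mark pairs. Inferred negative controls, 1 probe for Ccne1, Ccne2 and Cdk6, and 3 mice a group limit the precision, most for dim probes, and no measure of protein or of cell cycle phase was at hand.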

Other observations

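Cyclins and kinases outside the core of the cell cycle, many of which serve transcription or signalling, changed in both directions. Of 23 such genes tested, 7 rose and 3 fell, where 19.7% and 17.1% of all genes did, at a median change of 0.11. Ccnl2, which encodes a cyclin of splicing, had normalized log2 signals of 7.37, 7.34 and 7.20 in WT and of 5.95, 5.81 and 6.35 in KO, so every KO mouse was below every WT mouse (-1.27 ± 0.16, SE; limma, adjusted p = 0.00121). Cdk14, for a kinase linked to WNT signalling, stood at 6.37, 6.20 and 5.68 in WT and at 6.87, 7.50 and 7.24 in KO, above WT in every KO mouse (1.12 ± 0.22; adjusted p = 0.00545). Cdk20 was at 0.78 ± 0.14 (adjusted p = 0.00372) and Cdk5, for a kinase best known from neurons, at 0.67 ± 0.13 (adjusted p = 0.00479). These are dim probes, and in the deposited log2 table, where no background is removed, the changes of Ccnl2, Cdk14, Cdk20 and Cdk5 were -0.63, 0.55, 0.47 and 0.39. The other genes that fell, Ccny and Ccni, had adjusted p-values of 0.0171 and 0.0484 and were named after their values were seen. The count of rises was 4 with arrays scaled to the same median, and also when WT replicate 1 or 2 was left out. The count of falls was 1 when WT replicate 1 or 3 or KO replicate 3 was left out. The summed level of this list was 15610 to 16987 in WT and 17960 to 18963 in KO.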
